A study of Mus musculus with 14 samples.

Results

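DNA methylation was described at the CpG sites of 10 genes that mark the epithelial cells of the mammary gland: Epcam, Cdh1, Krt5, Krt8, Krt14, Krt18, Elf5, Grhl2, Esrp1 and Cldn4. The members were all rows of the deposited table whose gene symbol, that of the nearest transcript, was one of these names. They numbered 32 of the 75761 sites in the table, and they belonged to 8 of the 10 genes among 12627 gene symbols. Cldn4 had 12 sites, Krt18 and Esrp1 had 6 each, and Krt8 had 4. Epcam, Cdh1, Krt5 and Grhl2 had 1 site each. Krt14 and Elf5 had 0 sites, so neither could be described.

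The tissue was the mammary fat pad opposite the tumor of 14 female C57BL/6N mice (C57BL/6NCrl in the methods of the study), wild type by their labels, which arrived at 8 weeks of age and were randomized to a diet 1 week later. CON-LFD mice (n = 3) ate a low-fat diet with 10% of calories from fat throughout, and the other groups first became obese during 15 weeks on a diet with 60% of calories from fat. DIO-HFD mice (n = 4) stayed on the high-fat diet, DIO-LFD mice (n = 3) were changed to the low-fat diet, and DIO-VSG mice (n = 4) had vertical sleeve gastrectomy, a removal of most of the stomach, followed by the low-fat diet. The other groups had sham surgery. All mice carried a tumor, since E0771 mouse mammary cancer cells were injected into the 4th fat pad 22 weeks after randomization, and the 9th fat pad was sampled at the end. Each replicate was a separate mouse. The labels also list E0771 as a cell line, while the tissue label is normal mammary tissue of the other side. Reduced representation bisulfite sequencing (RRBS) was used, which reads DNA fragments cut by MspI at CCGG after bisulfite conversion and gives, at each CpG, the methylated share of the reads. That share is called the methylation level here and is given in percent.

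Mammary ducts are tubes with a layer of luminal cells, which express KRT8 and KRT18, and a layer of basal cells, which express KRT5 and KRT14. Both lie within a fat pad of adipocytes, fibroblasts, vessels and leukocytes, in which ducts are a minor part. Methylation of a promoter or island often accompanies a silent gene, and the genes of the epithelial program are commonly unmethylated near their starts in epithelial cells and may be methylated in other cells. In DNA from a whole fat pad, a different share of cells of one type and a different level within those cells cannot be told apart.

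The DNA around the sites on which the results turn is given here from the + strand of mm10 and written 5′ to 3′, with each measured CpG in capitals. The Epcam and Cdh1 windows hold the only measured CpG of each gene among several others that were not measured. The Krt8 window holds 3 sites and the Cldn4 exon window 9 sites, in which neighboring CpGs may be read in the same molecules and were not independent.
Epcam, intron, chr17:87637031-87637092: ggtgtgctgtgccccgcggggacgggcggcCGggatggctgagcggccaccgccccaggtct
Krt8, intron, chr15:101999334-101999437: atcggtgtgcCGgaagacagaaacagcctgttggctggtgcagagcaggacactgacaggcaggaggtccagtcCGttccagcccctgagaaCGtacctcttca
Cldn4, coding exon 1, chr5:134946273-134946393: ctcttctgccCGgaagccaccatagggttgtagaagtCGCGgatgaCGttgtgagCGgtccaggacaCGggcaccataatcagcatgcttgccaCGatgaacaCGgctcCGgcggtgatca
Cldn4, upstream, chr5:134949358-134949419: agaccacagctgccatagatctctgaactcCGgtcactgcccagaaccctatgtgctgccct
Cdh1, intron, chr8:106603656-106603717: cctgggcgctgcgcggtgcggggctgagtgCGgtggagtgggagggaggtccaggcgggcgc

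The 32 sites lay mostly beside, rather than at, the transcript starts. RefSeq promoter windows from 250 bases before to 50 bases after the start (GRCm38.p6) were at hand for 7 of the 10 genes. No member site fell inside them. Cdh1, Grhl2 and Esrp1 had no window, so their sites could not be checked, and Krt14 and Elf5 had a window but no site. The site nearest to any start was in the untranslated part of Esrp1 exon 1, at +67 bp. By the flags of the table, 14 of the 32 sites were in promoters and 15 in CpG islands, against 25.8% and 23.8% of all sites, and 19 were in exons and 6 in introns. Mean levels over the 14 mice ran from 6.64% at the Cdh1 site to 87.3%, with 13 of the 32 sites between 40% and 60%, a range that held 22.2% of all sites. A single site was below 20%, and 9 were at 80% or above. The SD over the 14 mice ran from 3.797 to 20.01 percentage points. Tests were limited to sites with an SD of at least 5 points, as in the filter of the study, and 25 of the 32 member sites were among the 65610 that passed. The filter used the spread over all mice and not the groups, and the Cdh1 site, with an SD of 4.78 points, was just below it.

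**Figure D1:**
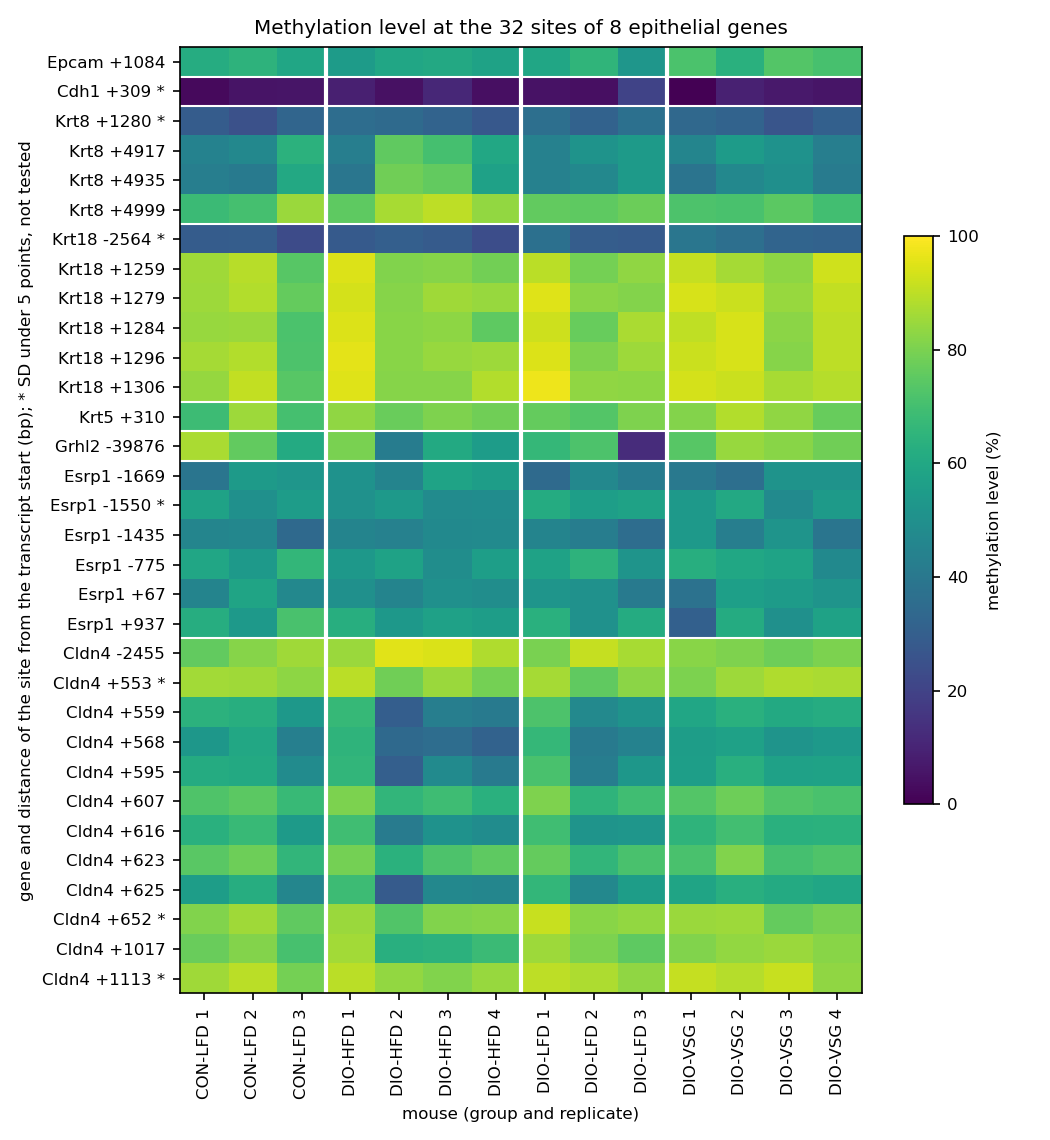
Methylation level (%, color) of the 32 sites (rows, named by gene and distance from the transcript start in bp) in each of the 14 mice (columns, by group). Asterisks mark the sites with an SD under 5 points, which were not tested. The Cdh1 row is the lowest, the Esrp1 rows stay near the middle of the scale in all groups, and DIO-HFD replicate 1 differs from the other 3 DIO-HFD mice in the Cldn4, Krt18 and Krt8 rows.

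One mouse bears on the comparisons with DIO-HFD. Averaged over all tested sites, DIO-HFD replicate 1 had a level of 66.2%, the highest of the 14 mice, and the other 3 DIO-HFD mice had 57.2%, 57.6% and 57.6%, the lowest. The other groups ranged from 60.6% to 65.2%. Replicate 1 was above all 3 other DIO-HFD mice at 58.8% of all tested sites and below all of them at 14.8%. Among the 25 tested member sites it was above them at 17 and below them at 5. The limma comparisons with DIO-HFD were therefore also fitted without this mouse, and the values of that fit are given where they move a result. The mouse was singled out by its levels in these same data, and leaving it out tends to narrow the DIO-HFD spread. The p-values without it are thus likely too low and are given as a description. The table held no read counts, and the depth of a level is unknown.

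Epcam, a cell surface adhesion glycoprotein found on nearly all mammary epithelial cells, is on chr17:87635979-87651129 (+). Its single measured site, at position 87637061, lies in an intron and in a CpG island 1084 bp after the start, within an MspI site. The level was 71.7%, 63.3%, 73.1% and 71.1% in the DIO-VSG mice and 55.1%, 59.2%, 60.3% and 57.7% in the DIO-HFD mice. Every DIO-VSG mouse was above every DIO-HFD mouse. The CON-LFD mice had 61.9%, 64.8% and 59.0%, and the DIO-LFD mice 59.3%, 65.4% and 52.5%, so that 1 CON-LFD and 1 DIO-LFD mouse were above the lowest DIO-VSG mouse. By group the means were 69.8% ± 4.4 in DIO-VSG, 61.9% ± 2.9 in CON-LFD, 59.1% ± 6.5 in DIO-LFD and 58.1% ± 2.3 in DIO-HFD (SD). The latter 3 groups overlapped each other. DIO-VSG was 11.7 points above DIO-HFD (two-sided exact permutation p = 0.0286, the smallest that 4 against 4 mice can give; 0.114 after adjustment over the 4 Epcam comparisons) and 10.7 points above DIO-LFD (exact p = 0.114, adjusted 0.229). CON-LFD was 3.85 points above DIO-HFD (exact p = 0.171, adjusted 0.229) and DIO-LFD 1.01 points above it (exact p = 0.8, adjusted 0.8). In the limma fit over all sites the DIO-VSG difference from DIO-HFD was 0.73 ± 0.26 (SE) in M, the log2 ratio of the methylated to the unmethylated share, with an adjusted p of 0.155. At this site DIO-HFD replicate 1 was the lowest of its group. Leaving it out gave 10.7 points, an exact p of 0.0571, the smallest that 4 against 3 mice can give, and an adjusted p of 0.0606 in limma. After the median level of each mouse was subtracted, the difference in M was 0.25 (adjusted p = 0.689). The median over all tested sites was itself 0.48 in M, or 5.40 points, higher in DIO-VSG than in DIO-HFD mice before centring.

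**Figure D2:**
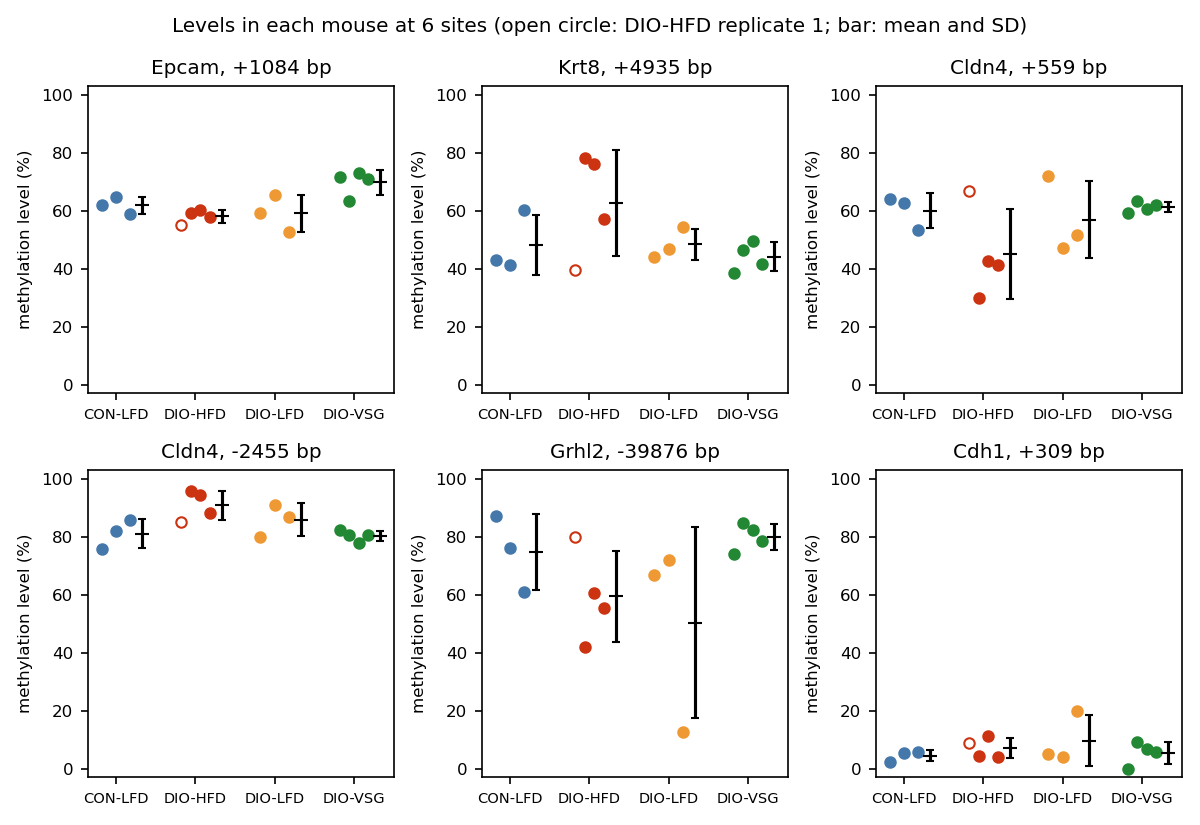
Methylation level (%, y axis) in each mouse (points) by group (x axis) at 6 sites, with the mean and SD of each group beside the points. The open circle is DIO-HFD replicate 1. At the Epcam site the 4 DIO-VSG points lie between 63.3% and 73.1%, above the 4 DIO-HFD points, while at the Krt8 and Cldn4 +559 sites the open circle lies apart from the other DIO-HFD points.

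Cdh1, the gene of E-cadherin, the core protein of epithelial adherens junctions, is on chr8:106603351-106670246 (+). Its site at position 106603686 lies in the promoter and island as flagged by the table, 309 bp after the start and within an intron, and it had the lowest level of all members. The level was 2.44%, 5.30% and 5.77% in CON-LFD mice, 8.84%, 4.48%, 11.3% and 4.03% in DIO-HFD mice, 5%, 4.17% and 20% in DIO-LFD mice, and 0%, 9.09%, 6.78% and 5.71% in DIO-VSG mice. All groups overlapped, and 13 of the 14 mice were at 11.3% or below. With the SD filter lifted, the DIO-VSG mice differed from the DIO-HFD mice by -0.69 ± 0.73 (SE) in M (limma, adjusted p = 0.578).

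Cldn4, a tight junction claudin of luminal and other lining epithelia, is on chr5:134945119-134946934 (-) and held the most sites. Of its 12 sites, 9 lay within 100 bases of coding exon 1, from 553 to 652 bp after the start, in a CpG island. The levels of neighboring CpGs differed in a pattern that recurred from mouse to mouse. The site at +553 bp was above the site at +559 bp, 6 bases away, in 14 of 14 mice, by 14.8 to 48.4 points with a median of 26.5. The site at +625 bp was below the site at +623 bp in all 14 mice, with a median difference of -16.9 points. Among the 9 measured island sites, the highest mean levels were at the outermost, at +553 and +652 bp. Both of these lie within an MspI site, and the island sites between them do not.

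Between mice, the site at +559 bp varied most of the Cldn4 sites. Its level was 66.9%, 29.9%, 42.6% and 41.4% in the DIO-HFD mice, against 59.2%, 63.5%, 60.7% and 61.8% in the DIO-VSG mice. The CON-LFD mice had 64.1%, 62.8% and 53.2%, and the DIO-LFD mice 71.9%, 47.2% and 51.5%. DIO-HFD replicates 2 to 4 were the lowest of all mice, and replicate 1 was above every DIO-VSG mouse. Over the 9 island sites, the mean was 68.3% ± 2.38 in DIO-VSG, 66.1% ± 5.77 in CON-LFD, 65.3% ± 9.35 in DIO-LFD and 59.8% ± 10.5 in DIO-HFD mice (SD), and the 4 DIO-HFD mice had 74.3%, 49.5%, 59.0% and 56.5%. DIO-HFD replicate 1 was above the 3 others at 9 of 9 island sites. At +559 bp the DIO-VSG difference from DIO-HFD was 0.93 in M (limma, adjusted p = 0.212), and without DIO-HFD replicate 1 it was 1.36 (adjusted p = 0.0146). Without that mouse 4 of the 7 tested island sites passed an adjusted p of 0.05, all with the higher level in DIO-VSG mice, against 0 of 7 with it, beside 34.4% of all tested sites. Of all 9 tested Cldn4 sites, 8 were higher in DIO-VSG than in DIO-HFD mice, beside 71.3% of all tested sites. After centring each mouse on its median 6 were higher, beside 49.7%. The mean M of the 9 sites differed by 0.42 (limma over genes, adjusted p = 0.378), and by -0.058 after centring (adjusted p = 0.885).

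**Figure D3:**
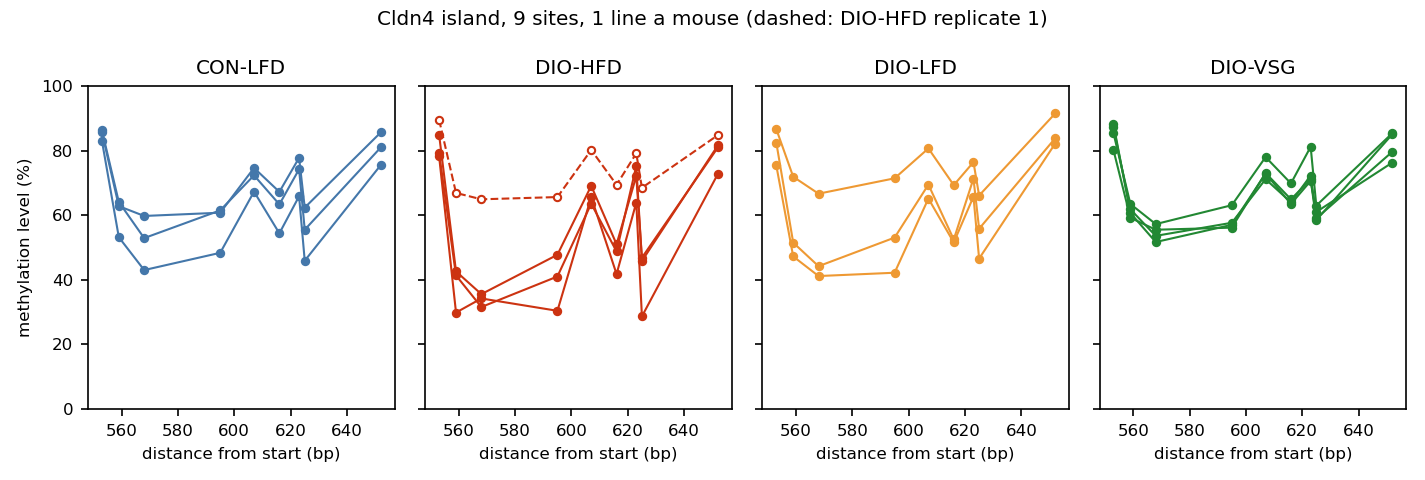
Methylation level (%, y axis) along the 9 Cldn4 island sites by distance from the transcript start (bp, x axis), with 1 line for each mouse and 1 panel for each group. At +559, +568 and +616 bp the 3 solid DIO-HFD lines are the lowest of all mice, the dashed line of DIO-HFD replicate 1 lies above them at every site, and the 4 DIO-VSG lines run close together.

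Outside the island, Cldn4 sites went both ways. At +1017 bp, in the untranslated end of the gene, the DIO-VSG mice had 81.1%, 83.8%, 85.1% and 82.1%, and the DIO-HFD mice 86.0%, 63.1%, 64.1% and 68.2%. The difference was 12.7 points (limma unadjusted p = 0.0356, adjusted p = 0.179), and 17.9 points without DIO-HFD replicate 1 (adjusted p = 0.00518). The site at -2455 bp, before the start, had the opposite order, with 82.3%, 80.6%, 78.0% and 80.4% in DIO-VSG mice and 85.1%, 95.7%, 94.4% and 88.2% in DIO-HFD mice. Here the groups did not overlap, and DIO-VSG differed by -1.34 in M (limma, adjusted p = 0.150). CON-LFD mice had 75.8%, 81.9% and 85.6% there and differed from DIO-HFD by -1.25 in M (adjusted p = 0.611). Without DIO-HFD replicate 1 both differences passed, at -1.63 (adjusted p = 0.00898) and -1.54 (adjusted p = 0.0370). DIO-LFD mice, with 79.7%, 91.0% and 87.0%, overlapped both the DIO-VSG and the DIO-HFD range.

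Krt8, which encodes the type II keratin of luminal cells, is on chr15:101996698-102004482 (-). Of its 4 sites, 3 lay within 83 bases of an intron, at +4917, +4935 and +4999 bp, and 1 at +1280 bp in an intron nearer to the start. At +4935 bp the DIO-HFD mice had 39.4%, 78.2%, 76.0% and 57.1%, and the DIO-VSG mice 38.5%, 46.5%, 49.7% and 41.6%. The CON-LFD mice had 43.0%, 41.3% and 60.2%, and the DIO-LFD mice 44.1%, 46.7% and 54.4%. In contrast to the Cldn4 island, DIO-HFD replicates 2 to 4 were above every DIO-VSG mouse, and replicate 1 was the second lowest of all. Those 3 DIO-HFD mice and CON-LFD replicate 3, which had the 4 lowest mean levels over all tested sites, had the 4 highest levels at this Krt8 site.

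Averaged over the 3 intron sites, the Krt8 level was 69.6% ± 12.9 in DIO-HFD, 58.2% ± 3.71 in DIO-LFD, 58.1% ± 10.1 in CON-LFD and 54.8% ± 3.68 in DIO-VSG mice (SD). DIO-VSG differed from DIO-HFD by -1.05, -1.14 and -0.82 in M at +4999, +4935 and +4917 bp (limma, adjusted p = 0.151, 0.177 and 0.235). At +4999 bp the groups did not overlap, with 69.7% to 74.6% in DIO-VSG and 75% to 89.9% in DIO-HFD mice. Without DIO-HFD replicate 1 the differences were -1.33, -1.61 and -1.21 (adjusted p = 0.0104, 0.00926 and 0.0217). DIO-LFD then also differed from DIO-HFD at +4935 bp, by -1.37 in M (adjusted p = 0.0476), and CON-LFD did not pass there (adjusted p = 0.0511). Centring each mouse on its median left the 3 DIO-VSG differences negative, at -1.53, -1.63 and -1.31. The site at +1280 bp stayed between 24.6% and 37.1% in all mice and was not tested.

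Krt18, the type I keratin partner of Krt8, is on chr15:102028180-102032027 (+). Its 6 sites comprised 5 within 48 bases of coding exon 2 and 1 at -2564 bp. The exon sites were highly methylated, and the mean of the 5 was 89.6% ± 3.94 in DIO-VSG, 86.2% ± 6.88 in DIO-LFD, 85.7% ± 6.14 in DIO-HFD and 82.4% ± 7.73 in CON-LFD mice (SD). All groups overlapped. The nearest site to the start, at +1259 bp, differed by 0.40 in M between DIO-VSG and DIO-HFD (limma, adjusted p = 0.625), and the most variable, at +1284 bp, by 0.57 (adjusted p = 0.519). Without DIO-HFD replicate 1, which was the highest of its group at the 5 sites, these were 0.88 (adjusted p = 0.123) and 1.06 (adjusted p = 0.108). All 5 differences were positive, and 3 of the 5 turned negative when each mouse was centred on its median. The site at -2564 bp was lower, with 39.1%, 36.6%, 32.3% and 31.3% in DIO-VSG mice and 28.3%, 30.2%, 28.6% and 23.7% in DIO-HFD mice. Those groups did not overlap, as at 5.55% of all tested sites with the higher level in DIO-VSG mice. The SD over all mice was under the minimum at this site, so no test was made.

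Krt5, a keratin of basal cells, is on chr15:101707070-101712898 (-), and its site at position 101712582 lies in coding exon 1, flagged as promoter, 310 bp after the start. The level was 82.5% ± 4.9 in DIO-VSG, 79.9% ± 2.7 in DIO-HFD, 76.8% ± 3.8 in DIO-LFD and 74.8% ± 9.2 in CON-LFD mice (SD). Levels ran from 68.4% to 88.4% over the 14 mice, and all groups overlapped. DIO-VSG differed from DIO-HFD by 0.26 in M (limma, adjusted p = 0.654), a difference of opposite sign, -0.22, after centring each mouse. It was 0.058 with DIO-VSG replicate 2 left out and 0.44 with DIO-VSG replicate 4 left out. Krt14, its partner, had no site.

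Grhl2, a transcription factor that maintains the epithelial state and is known to activate Cdh1 and Cldn4, is on chr15:37233036-37363569 (+). Its single site was far from the gene, at -39876 bp, and was assigned to it as the nearest transcript. It had the largest spread of all members, an SD of 20.01 points. The level was 74.2%, 84.6%, 82.1% and 78.5% in DIO-VSG mice, 79.8%, 42.0%, 60.6% and 55.4% in DIO-HFD mice, 66.7%, 71.9% and 12.5% in DIO-LFD mice, and 87.2%, 76.1% and 61.04% in CON-LFD mice. The DIO-VSG mean was 29.5 points above the DIO-LFD mean, but 1 DIO-LFD mouse at 12.5% stood far below the rest. DIO-VSG differed from DIO-LFD by 2.09 in M (limma unadjusted p = 0.0305, adjusted p = 0.945), or by 0.81 without DIO-LFD replicate 3, the mouse at 12.5% (unadjusted p = 0.238), and from DIO-HFD by 1.36 (adjusted p = 0.287). Without DIO-HFD replicate 1 the latter was 1.81 (adjusted p = 0.115).

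Esrp1, an epithelial splicing regulator, is on chr4:11331933-11386783 (-). It had 6 sites from -1669 to +937 bp, all within MspI sites and 4 of them in an island. The mean of the 6 differed little between mice, while single sites had an SD over all mice of up to 9.38 points, at +937 bp. That mean was 52.8% ± 1.46 in CON-LFD, 51.5% ± 1.12 in DIO-HFD, 50.8% ± 2.18 in DIO-LFD and 50.5% ± 2.84 in DIO-VSG mice (SD). At +67 bp, the nearest to the start, the DIO-VSG mice had 37.9%, 56.5%, 55.1% and 51.6% and the DIO-HFD mice 50.4%, 44.9%, 50% and 49.1%. The difference was 0.09 ± 0.31 (SE) in M (limma, adjusted p = 0.874), and its sign turned under centring and without DIO-VSG replicate 2. At +937 bp, in coding exon 2, DIO-VSG replicate 1 had 30.8% and the other 3 DIO-VSG mice 50% to 61.5%, and the difference from DIO-HFD was -0.43 in M (adjusted p = 0.500). In the gene fit Esrp1 differed by -0.11 ± 0.16 (SE) between DIO-VSG and DIO-HFD mice (adjusted p = 0.679). With each mouse centred on its median the gene difference was -0.59 (adjusted p = 0.225). The 5 tested Esrp1 sites were then all lower in DIO-VSG mice, while 49.7% of all tested sites were higher. DIO-HFD replicate 1 was above its group at 2 of the 6 Esrp1 sites and below it at 0.

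Over all 25 tested member sites, 0 passed an adjusted p of 0.05 in limma in any of the 4 comparisons. The background was 0.0% of the 65610 tested sites for CON-LFD against DIO-HFD and 0.00305% for each of the other 3. At an unadjusted p of 0.05, 1 member site differed between CON-LFD and DIO-HFD (background 7.76%), 0 between DIO-LFD and DIO-HFD (background 10.1%), 5 between DIO-VSG and DIO-HFD (background 25.0%) and 2 between DIO-VSG and DIO-LFD (background 3.98%). The 5 were Epcam and Cldn4 +1017 bp, higher in DIO-VSG (2 of 25, background 20.2%), and Krt8 +4999, Krt8 +4935 and Cldn4 -2455 bp, lower (3 of 25, background 4.85%). With each mouse centred on its median, 0 were higher (background 8.64%) and 6 lower (background 11.4%). The 2 against DIO-LFD were Epcam, by 0.66 in M (adjusted p = 0.945), and Grhl2, both higher in DIO-VSG. The 5 of 25 that differed between DIO-VSG and DIO-HFD were not above the background share of all sites.

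The member differences are set beside the whole table. The median member difference was 3.42 points for DIO-VSG against DIO-HFD, beside 5.40 points over all tested sites, and it was -0.00166 points for CON-LFD and -0.0446 points for DIO-LFD against DIO-HFD, beside 3.721 and 3.814 points. The members and all sites, without DIO-HFD replicate 1, had medians of 6.18 and 7.47 points for DIO-VSG, 2.18 and 5.92 for CON-LFD, and 2.93 and 6.04 for DIO-LFD. These 3 comparisons share the DIO-HFD mice. Between DIO-VSG and DIO-LFD it was 2.92 points, beside 1.71. Member sites higher in DIO-VSG than in DIO-HFD mice numbered 19 of 25, beside 71.3% of all sites, and centring left 10 of 25 higher, beside 49.7%. Among the 25 tested member sites, the groups did not overlap at 1 that was higher in DIO-VSG, the Epcam site (background 5.55%), and at 2 that were lower, Krt8 +4999 and Cldn4 -2455 bp (background 2.03%).

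**Figure D4:**
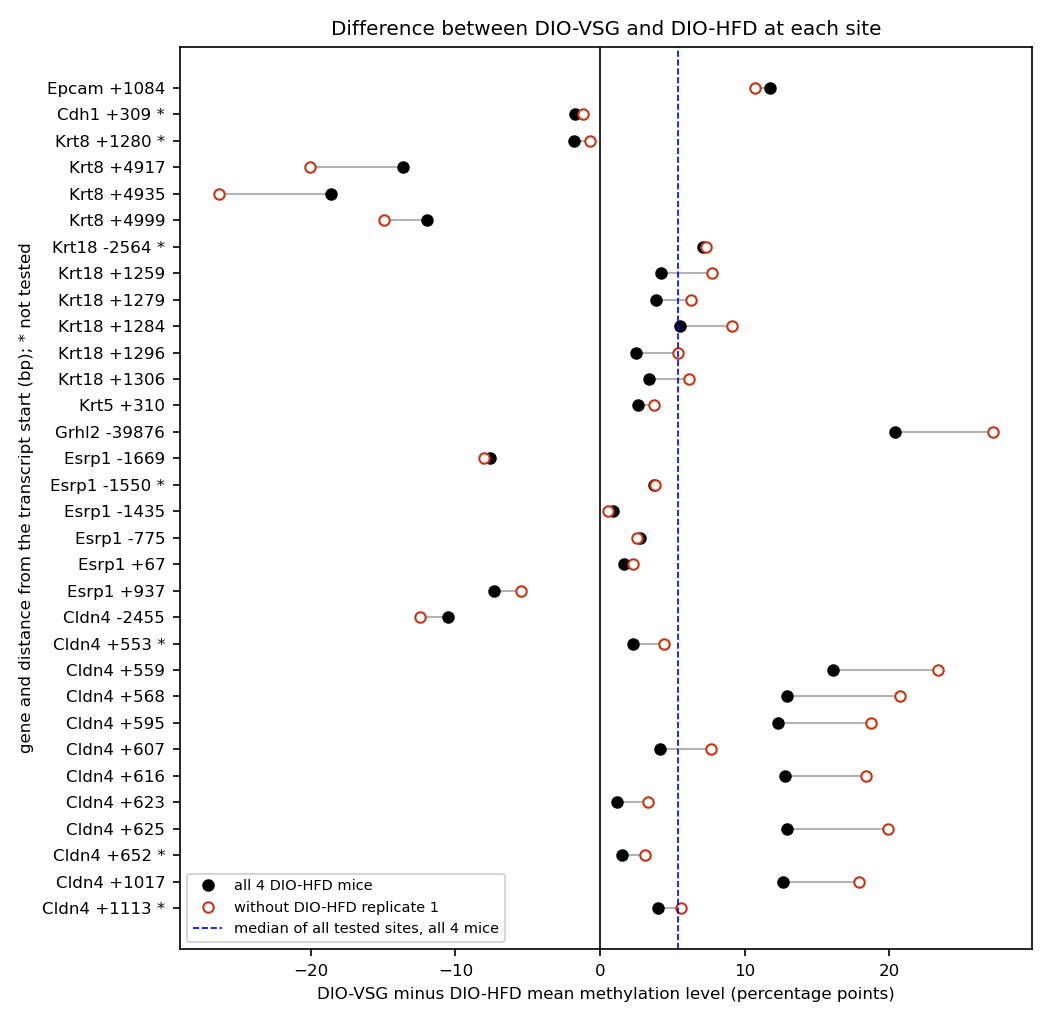
Mean methylation level of DIO-VSG minus DIO-HFD mice (percentage points, x axis) at each of the 32 sites (y axis), with all 4 DIO-HFD mice (filled) and without DIO-HFD replicate 1 (open). The dashed line is the median of all tested sites with all 4 DIO-HFD mice, 5.40 points, and applies to the filled points. Without DIO-HFD replicate 1 that median, not drawn, was 7.47 points. The Krt8 intron sites and Cldn4 -2455 bp lie left of 0. The filled points of 5 of the 9 Cldn4 island sites and of Grhl2 lie right of the dashed line. The Epcam points lie at 11.7 and 10.7.

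Without DIO-HFD replicate 1, the member sites with an adjusted p under 0.05 numbered 1 for CON-LFD (background 12.0%), 2 for DIO-LFD (background 14.6%) and 9 for DIO-VSG against DIO-HFD (background 34.4%). The 9 were the 3 Krt8 intron sites and Cldn4 -2455 bp, lower in DIO-VSG mice, and Cldn4 +1017 bp and 4 Cldn4 island sites, higher. Taken as genes, by the mean M of their tested sites, 0 of 7 passed in any comparison with all mice, as did 0.0% of the 11825 genes tested. Without that mouse 0 of 7 passed for CON-LFD (background 10.2%), 1 for DIO-LFD (background 12.9%) and 3 for DIO-VSG (background 30.3%). The 1 was Krt8, by -1.17 in M (adjusted p = 0.0459). The 3 were Krt8 by -1.38 (adjusted p = 0.00862), Epcam by 0.67 (adjusted p = 0.0364) and Cldn4 by 0.71 (adjusted p = 0.0459). The Epcam value is that of its single site, which did not pass in the fit over sites.

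Other genes of the epithelial program were counted in the same way. Of 44 listed, 24 had 123 tested sites, of which 14 were higher and 0 lower in DIO-VSG than in DIO-HFD mice at an unadjusted p of 0.05, beside 20.2% and 4.85% of all tested sites, with 0 past the adjusted threshold and a median of 4.72 points, or 6.76 without DIO-HFD replicate 1. By the mean of their sites, 19 of the 24 genes were higher and 5 lower in DIO-VSG mice. Of all tested sites, 73.2% were higher by level, and the share over all genes was not computed. Cldn3, a claudin related to Cldn4, was the highest and had 1 tested site with means of 30.3% in DIO-VSG and 14.1% in DIO-HFD mice. The groups did not overlap there, as at 5.55% of all tested sites with the higher level in DIO-VSG mice. Esr1, Pgr, Spint2, Marveld3, Tfap2c and Sox10 also had sites that were higher without overlap, and Pgr had 1 that was lower (background 2.03%). Jup, which encodes plakoglobin of junctions, had a mean difference of 11.2 points over 7 sites, and Grhl3, a relative of Grhl2, 11.7 points over 2 sites. Esrp2, the paralog of Esrp1, was the lowest, by -7.91 points at 1 site, followed by Spint1, a protease inhibitor, by -7.19 points. The other genes on the lower side were Prom1, Ovol2 and Gata3, by -1.31, -0.89 and -0.49 points. The luminal regulator Foxa1 differed by 0.33 points and Cd24a by 0.81 points.

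The same counts were made for markers of other cells of the fat pad, to be read beside 20.2% higher and 4.85% lower among all tested sites. The sites of each list, the epithelial list included, come from few genes in the same mice. They were not independent, and the counts are a description. Adipocyte markers had 23 tested sites in 7 of 15 genes, 9 higher and 1 lower at an unadjusted p of 0.05, with a median of 8.99 points between DIO-VSG and DIO-HFD mice. Fibroblast markers had 51 in 4 of 7 genes, 22 higher and 0 lower, with a median of 10.01 points, and endothelial markers 10 in 5 of 7 genes, 3 higher and 0 lower, with a median of 8.90 points. Leukocyte markers had 5 in 3 of 12 genes, 0 higher and 2 lower, with a median of -8.86 points. These medians were 9.79, 14.8, 11.2 and -10.7 points without DIO-HFD replicate 1, beside 7.47 over all tested sites. In these 4 lists 0 sites passed the adjusted threshold with all mice. These are methylation levels and not expression, so they do not give the share of any cell type, and the part of cell composition in the Epcam, Krt8 and Cldn4 values was not tested.

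The genes whose mean level over the 14 mice followed that of Epcam most closely, of 6102 genes with at least 3 tested sites, were Aspscr1 (Pearson r = 0.765), A530006G24Rik (r = 0.762) and Gm24910 (r = 0.755). All 3 had their highest group mean in DIO-VSG and their lowest in DIO-HFD mice, as the Epcam site did. They were picked by their correlation with Epcam in these same mice, so that order is not an independent result. The points are mice that share the shift in mean level described above, and the r values are a description.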

How the data were processed

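DNA methylation was measured by RRBS in 14 mice, in the mammary fat pad of the side without the tumor. Per the study's methods and the submitters' processing notes, reads were aligned to mm10 with Bismark, calls were made with methylKit, and 1 CON-LFD and 1 DIO-LFD mouse were removed as outliers. The authors deposited the methylation level of each site in each mouse as a fraction from 0 to 1, without read counts or further normalization, so depth is unknown and no counting interval was computed. Groups came from the sample labels. Members were matched by the gene symbol of the table, and positions were read against mm10 with samtools 1.23.1.

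Levels b were converted to M = log2((b + 0.01)/(1 - b + 0.01)). Sites with an SD of the level of at least 0.05 entered a limma 3.58.1 model of all 4 groups (R 4.3.3, default eBayes). Adjustment was by Benjamini-Hochberg over 65610 tested sites, and over 11825 genes for the mean M of a gene's tested sites. On simulated data for DIO-VSG against DIO-HFD over 65610 sites, 53 of 200 sites changed by 2 in M and 153 of 200 changed by 4 were recovered, with 2 and 5 false calls. The simulated noise was independent between sites and held no shift in mean level shared by a mouse. The false calls therefore do not carry over to these mice. Both sizes were larger than every member difference from DIO-HFD in the fit of all mice. The Epcam level was also compared in SciPy 1.17.1 (Python 3.11.15, NumPy 2.4.6, pandas 2.3.3) by exact permutation, with two-sided p. Figures were drawn with Matplotlib 3.10.9.

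Sites were named by rule: for each gene the site nearest to the transcript start and the site with the largest SD over all mice, every site of a gene with 3 sites or fewer, and every site past the adjusted threshold, plus the 3 genes most correlated with Epcam. The other Krt8 intron sites, Cldn4 at +1017, -2455, +623, +625 and +652 bp, and Krt18 at -2564 bp were named after their values were seen. So were Cldn3, Jup, Grhl3, Esrp2, Spint1, Prom1, Ovol2, Gata3, Foxa1, Cd24a, Esr1, Pgr, Spint2, Marveld3, Tfap2c and Sox10. The members and gene lists were chosen with earlier results of these data known. The fit was repeated with an M offset of 0.1, on untransformed levels, with the trend and robust options of eBayes, on 2 groups at a time, after centring of each mouse, without the SD filter, with a replicate block, and without each of the 14 mice. Medians in points, the gene tally and the exact test without DIO-HFD replicate 1 were chosen after seeing the data. Of the 14 fits that left out 1 mouse, that without DIO-HFD replicate 1 was featured after seeing the levels. Expression and the study's own comparisons were not analysed here.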

Additional observations from a re-analysis of the deposited data

Results flagged for a closer look

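Means over regions and named sites were screened in groups of 4 mice for a highest or lowest mouse far from the others, in 40 groups, of which about 2 would be flagged by chance and 2 were. Over the 5 Krt18 exon 2 sites, DIO-HFD replicate 1 had a mean of 94.8%, and the other 3 DIO-HFD mice had 81.9% to 83.4%, so its gap to the nearest was 0.89 of the range of the group. Over the 9 Cldn4 island sites, DIO-VSG replicate 2 had a mean of 71.8%, and the other 3 DIO-VSG mice had 66.9% to 67.4%, a gap of 0.9 of the range.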

How the results depend on the processing

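Of 16 differences in M at named sites, each under 21 alternatives, 13 kept their direction under all. After centring each mouse on its median, 3 reversed between DIO-VSG and DIO-HFD: Krt5 +310 bp to -0.22, Krt18 +1259 bp to -0.078 and Esrp1 +67 bp to -0.39. Leaving out 1 mouse in turn gave -0.027 to 0.33 at Esrp1 +67 bp, and -0.027 was without DIO-VSG replicate 2. All 7 differences that came to pass the adjusted threshold did so without DIO-HFD replicate 1.

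Leaving out 1 mouse in turn changed the member sites past the adjusted threshold in the comparisons with DIO-HFD. They numbered 0 to 1 in CON-LFD mice, 0 to 2 in DIO-LFD and 0 to 9 in DIO-VSG, and genes 0 to 1 in DIO-LFD and 0 to 3 in DIO-VSG, with every count above 0 coming without DIO-HFD replicate 1. The counts at an unadjusted p of 0.05 then ran from 0 to 9, 0 to 8 and 3 to 12, and from 0 to 2 for DIO-VSG against DIO-LFD. The highest came without DIO-HFD replicate 1, at 9, 8 and 12 of 25, beside 30.9%, 32.6% and 44.9% of all tested sites. The 0 for CON-LFD came without CON-LFD replicate 1 or DIO-HFD replicate 2. The 3 came without DIO-VSG replicate 4, or without replicate 2 or replicate 3 of DIO-HFD, and the 0 for DIO-VSG against DIO-LFD without DIO-LFD replicate 3 or DIO-VSG replicate 3.

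With levels in place of M the unadjusted counts were 2 for CON-LFD and 8 for DIO-VSG against DIO-HFD, beside 9.71% and 28.5% of all tested sites. Centring gave 1 for DIO-LFD against DIO-HFD and 1 for DIO-VSG against DIO-LFD (9.95% and 4.65% of all sites). An M offset of 0.1 gave 1 for the latter (3.827%), and a fit of its 2 groups gave 0 (5.94%). The replicate block gave 2 for CON-LFD against DIO-HFD and 1 for DIO-VSG against DIO-LFD (7.49% and 4.48%). Replicate numbers were taken as labels. Deviations of same-numbered mice correlated between -0.08 and 0.20, with the highest value between replicate 1 of DIO-HFD and of DIO-LFD. Whether same-numbered mice were handled together was not tested. The causes were not tested. The depth behind the levels is unknown.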
